A study of Mus musculus with 8 samples.

Results

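Chemokine ligands are small secreted proteins that bind G-protein-coupled receptors on leukocytes and set the direction in which these cells move. They are sorted into CC, CXC, CX3C and XC subfamilies by the spacing of their first cysteines. In vessels they are held on heparan sulphate at the endothelial surface, where blood endothelium uses them to arrest rolling leukocytes and lymphatic endothelium uses them to draw dendritic cells and T cells into lymph.

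The ligand genes were taken as every probe set annotated to exactly 1 gene whose symbol is Ccl or Cxcl with a number, Cx3cl1, Xcl1 or Pf4. This gave 34 genes on 52 probe sets, out of 18193 genes with a probe set of their own. There were 18 CC genes, 14 CXC genes, the CX3C gene Cx3cl1 and the XC gene Xcl1. Of the 34 genes, 21 had 1 probe set, 9 had 2, 3 had 3 and 1 had 4. A further 4 probe sets for CC ligands were annotated to several genes and stand apart below.

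The arrays compared lymphatic endothelial cells (LEC) with blood vascular endothelial cells (BEC) of the mouse colon. Both cell types were sorted from each of 4 healthy, normal C57BL/6J mice aged 8 weeks, which carried no transgene or treatment named in the labels, so there are 4 LEC and 4 BEC arrays in animal-matched pairs. The mice of replicates 1 to 3 were female and that of replicate 4 was male. Cells were stained for CD31, podoplanin and CD45.2, their RNA was amplified before hybridisation, and the pairs were picked by the submitters for the quality of that material.

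Values are log2 signals, and 1 unit is a factor of 2. Each array has 27 control probe sets for transcripts of Bacillus subtilis, and their upper range set a background level of 3.43 to 4.88. The sort labels were borne out by the genes that define them. Pdpn, whose protein was used in the sort, Prox1, the lymphatic transcription factor, and Lyve1, a lymphatic hyaluronan receptor, were each higher in LEC by at least 164-fold, and all 6 lymphatic markers listed were called higher. All 6 blood endothelial markers were called lower, among them Vwf, the von Willebrand factor gene. The 6 markers shared by both all had lower means in LEC, with differences from -1.28 (Tek) to -0.61 (Pecam1). Their summed log2 signal was 13.19 to 13.95 on the LEC arrays and 14.28 to 14.78 on the BEC arrays. Among them Cdh5 alone was called lower in LEC, and that call was lost in 6 of 18 alternative settings. Pecam1, which encodes CD31, differed by -0.61 (limma, adjusted p = 0.439). Ptprc, which encodes CD45, was above background on 1 LEC array and 2 BEC arrays. The LEC array of replicate 1 stood apart. Its median rank correlation with the other LEC arrays was 0.603, against 0.745 to 0.746 for the other LEC arrays and 0.731 to 0.816 for the BEC arrays. In bulk samples, fewer cells of a type and less RNA per cell cannot be told apart.

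Most chemokine ligands lay near the background of these arrays. Only 4 of the 52 probe sets (7.69%) were above background on all 8 arrays, whereas 27.5% of all probe sets with 1 gene were. These 4 read Cxcl12, Cxcl17, Ccl9 and Ccl27a. Another 6 probe sets (11.5%) were above background on no array, against 12.8% of all probe sets with 1 gene. Ccl1, Ccl24, Cxcl2 and Cxcl3 had no probe set above background on any array. The number of ligand probe sets above background was 18, 18, 22 and 15 on the LEC arrays of replicates 1 to 4 and 24, 26, 27 and 25 on the BEC arrays. Every BEC array was above every LEC array in this count. The share of all probe sets with 1 gene above background was 50.5%, 55.1%, 62.2% and 55.1% on the LEC arrays and 52.4%, 65.5%, 60.9% and 61.2% on the BEC arrays, and these shares overlapped. The background itself was 3.83 to 4.88 on the LEC arrays and 3.43 to 4.52 on the BEC arrays, and its part in this count was not tested.

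**Figure D1:**
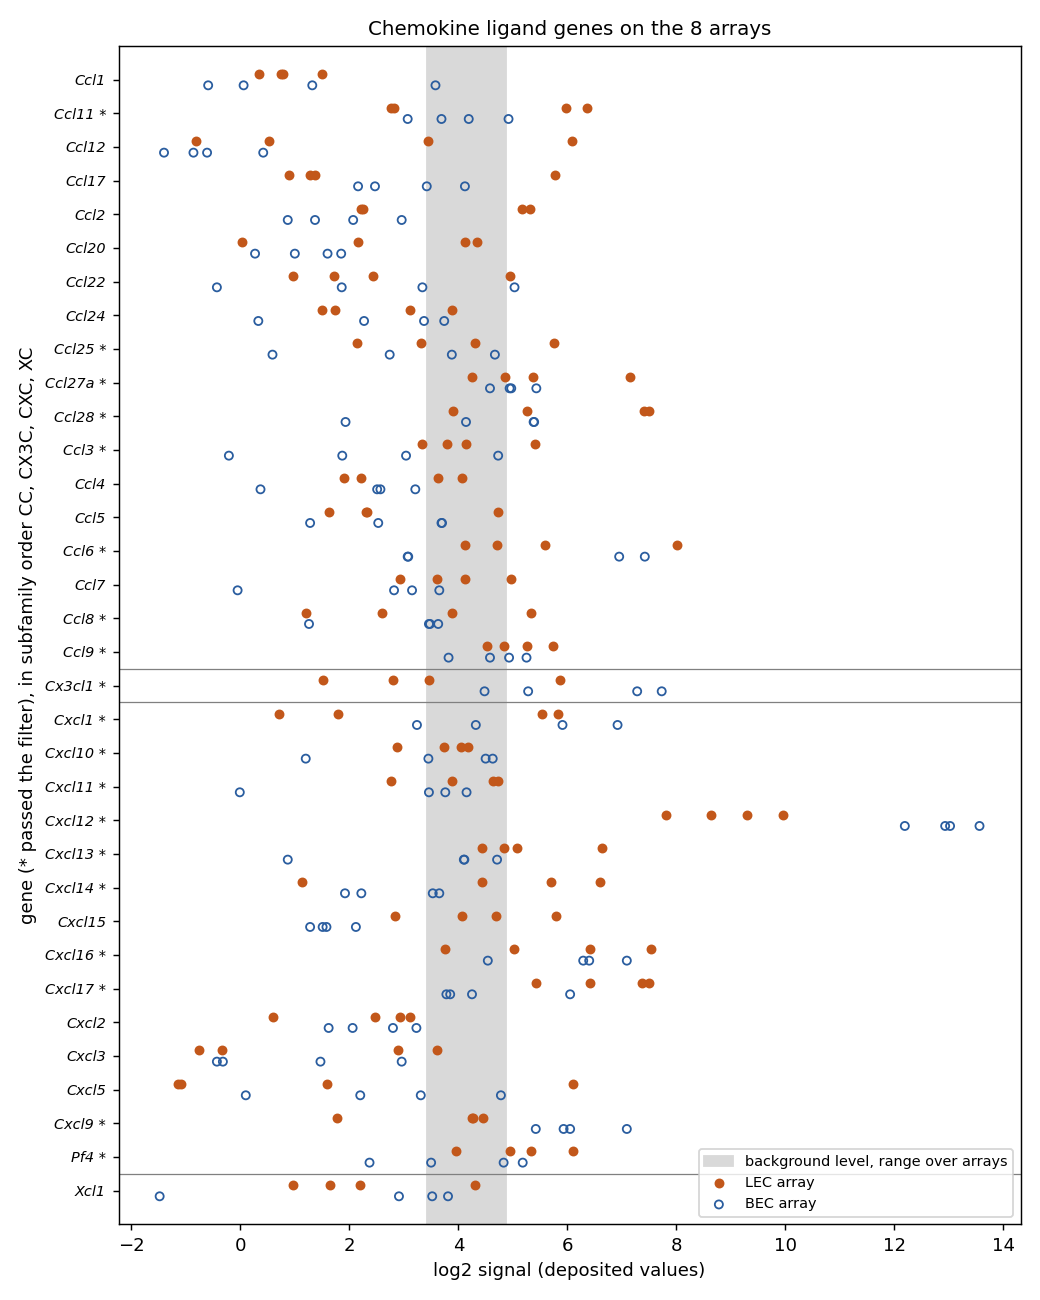
The log2 signal of each of the 34 chemokine ligand genes is plotted for the 4 LEC arrays (filled) and the 4 BEC arrays (open), with the probe set of highest mean standing for each gene and the grey band marking the range of background levels from 3.43 to 4.88. The Cxcl12 points lie at 7.80 to 9.96 in LEC and at 12.19 to 13.56 in BEC, to the right of the band, while most other genes have points inside or left of it.

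The comparison of LEC with BEC was made with limma over 13259 genes, each read by its probe set of highest mean and kept if above the 40th percentile on at least 4 of 8 arrays. Of all genes tested, 540 (4.07%) had an adjusted p under 0.05, with 234 (1.76%) higher and 306 (2.31%) lower in LEC. Of the 34 ligand genes, 19 passed the filter and 15 did not. Among the 19, Cxcl12 was the 1 gene called (5.26%), it was lower in LEC, and 0 were called higher. The other 18 had adjusted p-values between 0.155 and 0.943. At an unadjusted p under 0.05 there were 4 ligand genes, with Cxcl17 higher in LEC and Cxcl12, Cxcl9 and Cx3cl1 lower, beside 14.4% of all genes tested.

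The median LEC minus BEC difference of the 19 tested ligands was 0.48, and that of all genes tested was 0.08. It was 0.49 for the 8 CC ligands, all of which had a difference above 0, and 0.69 for the 10 CXC ligands. In total 14 of the 19 differences were above 0 and 5 were under 0. The median of all genes tested was also above 0, and the share of their differences above 0 was not counted. Of the 8 CC ligands, only Ccl9 and Ccl27a were above background on all arrays. The part of the background in these signs was not tested. The median of the 19 was 0.21 without BEC replicate 2 and 0.78 without LEC replicate 3. With arrays set to equal medians it was 0.20 and that of all genes was -0.20, and with equal hybridisation controls the values were 0.09 and -0.31. Both scalings shift all genes of an array by the same amount, so the distance between the ligands and all genes was fixed in advance. The sign of small differences depended on the scaling. After quantile normalization the medians were 0.33 for the 19 ligands and -0.02 for all genes.

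**Figure D2:**
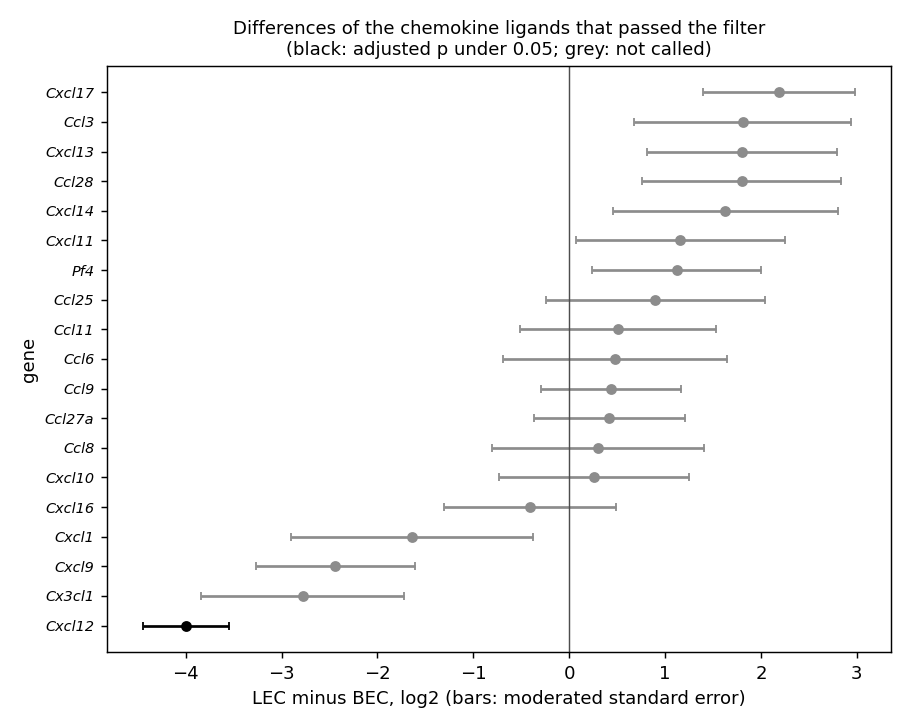
The LEC minus BEC difference (log2) of the 19 ligand genes that passed the filter is plotted with its moderated standard error, in black where the adjusted p was under 0.05. Cxcl12 at -4.0 is the 1 gene in black, Cx3cl1 and Cxcl9 follow at -2.78 and -2.44, and Cxcl17 lies farthest to the right at 2.19.

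Cxcl12 encodes the homeostatic chemokine also known as SDF-1, which retains CXCR4-bearing cells in bone marrow and guides vessel growth. Its most strongly hybridising probe set, 1417574_at, read 9.30, 9.96, 8.64 and 7.80 in LEC replicates 1 to 4 and 13.56, 12.93, 12.19 and 13.02 in BEC replicates 1 to 4. All 8 values were above background, and the highest LEC array was more than 2 units under the lowest BEC array. The means were 8.92 ± 0.92 in LEC and 12.93 ± 0.56 in BEC (SD, n = 4 each). The difference was -4.0 ± 0.45 (moderated SE), a 16-fold lower signal in LEC (limma, adjusted p = 1.44e-04). Within mice 1 to 4 the differences were -4.27, -2.97, -3.55 and -5.22, so LEC was lower in all 4 mice. Cxcl12 was called in each of 18 alternative settings, with differences from -4.86 to -3.63 and adjusted p-values from 1.65e-06 to 0.00774.

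The other Cxcl12 probe sets moved the same way, and probe sets were fitted separately for this purpose. Of 28838 probe sets that passed the filter, 954 (3.31%) were called and 530 (1.84%) were lower in LEC. Of the 52 ligand probe sets, 29 passed and 3 were called, all lower in LEC, of which 2 read Cxcl12 and 1 read Cxcl9. Probe set 1439084_at read 2.92, 3.92, 3.59 and 3.93 in LEC and 11.22, 10.16, 8.86 and 10.51 in BEC. It was under background on all 4 LEC arrays and passed the filter on its BEC values. Its difference was -6.60 ± 0.66 (limma, adjusted p = 7.83e-05), at least 60.9-fold lower in LEC, where "at least" means that values under background were raised to it first. Probe set 1448823_at read 3.96, 7.94, 1.61 and 5.86 in LEC and 8.14, 8.98, 8.83 and 9.34 in BEC. The LEC arrays of this probe set were scattered, with replicates 2 and 4 above background, yet none reached the lowest BEC array. Its difference of -3.98 ± 1.07 was not called (limma, adjusted p = 0.0634), at least 9.17-fold lower in LEC. Without LEC replicate 2 it was called (limma, adjusted p = 0.0107) at a bound of 15.6-fold, and without LEC replicate 3 the bound was 6.05-fold.

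**Figure D3:**
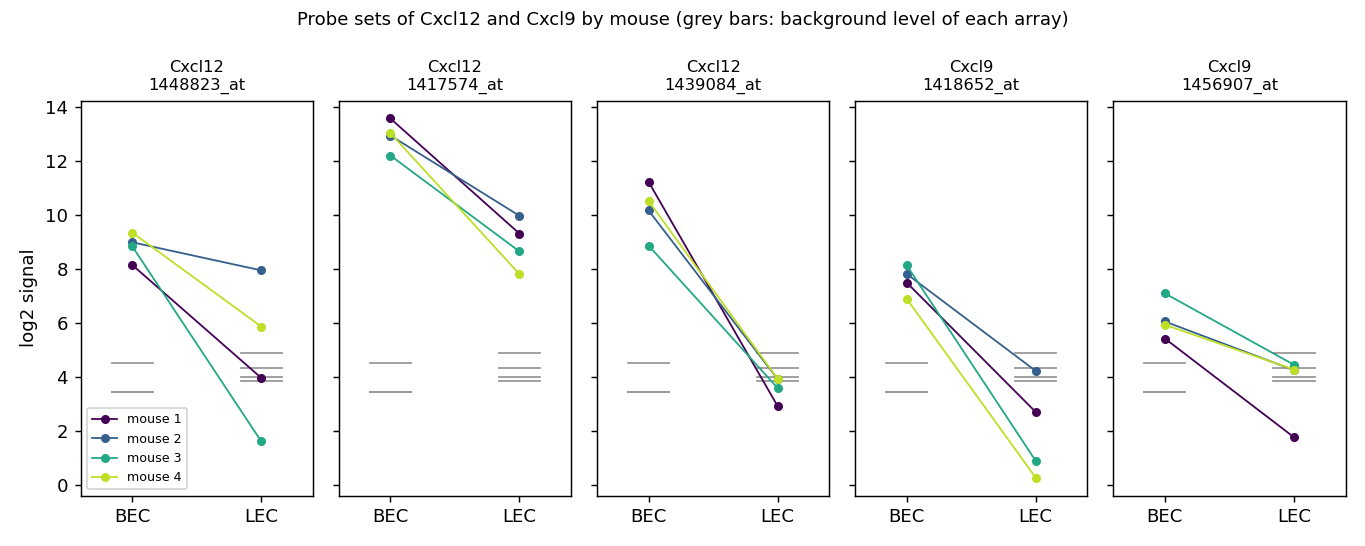
The log2 signals of the 3 Cxcl12 and 2 Cxcl9 probe sets are plotted with a line joining the BEC and LEC arrays of each mouse and grey bars marking the background level of each array. Every line falls from BEC to LEC, and the LEC points of 1439084_at and 1418652_at lie under their arrays' background.

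Cxcl12 is also made by perivascular and stromal cells, so markers of these cells are given beside it. Of 8 pericyte and smooth muscle markers, 6 were tested and Rgs5, a regulator of G-protein signalling in pericytes, was called lower in LEC, at least 27.9-fold. Their summed log2 signal was 7.08 to 8.33 on the LEC arrays and 9.71 to 10.56 on the BEC arrays, and Cspg4 was above background on 1 BEC array and on no LEC array. Acta2, Myh11 and Tagln, genes of the smooth muscle contractile apparatus, were above background on all 4 BEC arrays and on 3, 3 and 2 LEC arrays, with differences of -2.15, -1.10 and -2.29 that were not called. Pdgfrb, a growth factor receptor of pericytes and fibroblasts, differed by 1.81 and was not called, with LEC higher in all 4 mice. Of 10 fibroblast and reticular markers, 9 were tested. Fbln1, an extracellular matrix gene, was called 15.8-fold higher in LEC, which was 9.19-fold without LEC replicate 2 and 26.7-fold without LEC replicate 1. The Fbln1 call was lost in 8 of 18 alternative settings. The fibroblast sum was 8.24 to 12.72 on the LEC arrays and 7.71 to 8.41 on the BEC arrays. The part of either cell type in the Cxcl12 values was not tested.

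Cxcl9, Cxcl10 and Cxcl11 are ligands of CXCR3 that interferon gamma induces and that draw activated T cells and NK cells. Cxcl9 and Cxcl10 are neighbours on mouse chromosome 5. Their promoters are shown with that of Cxcl12 because Cxcl12 and Cxcl9 hold all of the called probe sets among the 52, and because Cxcl10 is the neighbour for which no difference was called. Each sequence is the 250 bases before the annotated start from RefSeq on GRCm38.p6, read 5′ to 3′ on the gene's strand: chr6:117168285-117168534 (+) for Cxcl12, chr5:92328080-92328329 (-) for Cxcl9 and chr5:92348890-92349139 (-) for Cxcl10. Capitals mark matches to an interferon-stimulated response element (ISRE, which is GAAA, 2 bases of any kind and GAAA again) or to the NF-kB motif called kB, searched on both strands.
Cxcl12: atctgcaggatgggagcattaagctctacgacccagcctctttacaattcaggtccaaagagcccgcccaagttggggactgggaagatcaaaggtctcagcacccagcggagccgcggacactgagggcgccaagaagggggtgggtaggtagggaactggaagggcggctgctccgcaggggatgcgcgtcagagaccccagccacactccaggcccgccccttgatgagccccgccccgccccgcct
Cxcl9: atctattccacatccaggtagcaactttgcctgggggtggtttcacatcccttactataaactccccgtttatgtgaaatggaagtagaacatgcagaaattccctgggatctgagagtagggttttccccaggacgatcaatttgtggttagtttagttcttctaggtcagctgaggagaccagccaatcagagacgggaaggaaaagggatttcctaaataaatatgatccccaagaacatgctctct
Cxcl10: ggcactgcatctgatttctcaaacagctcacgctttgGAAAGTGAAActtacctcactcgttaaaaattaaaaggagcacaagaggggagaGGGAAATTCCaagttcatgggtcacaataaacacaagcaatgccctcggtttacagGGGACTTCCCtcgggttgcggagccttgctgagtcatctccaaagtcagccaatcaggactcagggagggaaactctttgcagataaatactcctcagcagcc
The Cxcl10 window held 1 ISRE match and 2 kB matches. The Cxcl12 and Cxcl9 windows held neither motif, nor the gamma-activated site (GAS, TTCNNNGAA), which says only that these letters are not in these 250 bases. Of all 32851 promoters of this length, 2.98% held an ISRE match, 3.90% a kB match and 7.02% a GAS match. A promoter was found for 24 of the 34 ligand genes. Among these, kB matches lay at Ccl9, Ccl20, Cxcl1, Cxcl2, Cxcl3 and Cxcl10, ISRE matches at Cxcl10 and Cxcl14, and GAS matches at Ccl17 and Cxcl14.

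Cxcl9 had lower values in LEC with both of its probe sets, and the test called 1 of them. Probe set 1418652_at read 2.70, 4.22, 0.89 and 0.27 in LEC and 7.49, 7.81, 8.13 and 6.89 in BEC. All LEC arrays were under background, all BEC arrays were above it, and LEC was lower in all 4 mice. The probe set thus passed the filter on its BEC values, and its fitted difference rests on LEC values under background. The difference was -5.56 ± 0.94 (limma over probe sets, adjusted p = 0.00367), at least 9.99-fold lower in LEC, and the adjusted p was 0.00185 to 0.0185 over 12 alternatives. Probe set 1456907_at had the higher mean and so stood for the gene. It read 1.77, 4.25, 4.45 and 4.27 in LEC and 5.42, 6.05, 7.09 and 5.93 in BEC. The groups did not overlap here either, but 2 LEC arrays were above background and the difference of -2.44 ± 0.83 was not called (limma over genes, adjusted p = 0.155). That is at least 3.13-fold lower in LEC. When the 2 probe sets were averaged, Cxcl9 was called with a difference of -4.0 ± 0.65 (limma, adjusted p = 0.00253). That average includes the LEC values of 1418652_at under background.

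The values of Cxcl10 and Cxcl11 lay around background. Cxcl10 read 2.88, 4.18, 4.04 and 3.73 in LEC and 4.63, 3.45, 4.50 and 1.20 in BEC. The groups overlapped, with 1 LEC array and 3 BEC arrays above background, and the difference of 0.26 ± 0.99 was not called (limma, adjusted p = 0.943). It was -0.13 with equal hybridisation controls and -0.01 with equal array medians. Cxcl11 read 4.73, 2.76, 4.63 and 3.88 in LEC and 4.15, -0.01, 3.46 and 3.76 in BEC. Its difference was 1.16 ± 1.09 (limma, adjusted p = 0.705), and it was 0.21 without BEC replicate 2. Its other probe set, 1419697_at, differed by -0.76 and was above background on 2 BEC arrays and on no LEC array. Whether Cxcl9 differed from Cxcl10 or Cxcl11 in its LEC minus BEC difference was not tested.

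For 5 of the 52 probe sets (9.62%) every LEC array lay under every BEC array, and all 5 read Cxcl12 or Cxcl9. This stands beside 3.17% of all probe sets with LEC wholly under BEC. In the other direction there was 1 of 52 (1.92%), probe set 1456428_at of Cxcl15, beside 4.13% of all probe sets. Cxcl15 encodes lungkine, a neutrophil attractant of mucosal epithelium in mice. This probe set read 5.79, 4.06, 2.84 and 4.69 in LEC and 1.58, 1.51, 1.28 and 2.12 in BEC. No BEC array and 2 LEC arrays were above background, and the probe set did not pass the filter. With values under background raised to it, the LEC signal was 1.94-fold higher. This is no bound, since 2 LEC values were raised as well. The background levels alone gave a ratio of 1.47, as for Cxcl2, which was above background on no array. The other Cxcl15 probe set, 1421404_at, differed by -0.96 and was above background on 1 BEC array.

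Cx3cl1 and Cxcl16 are the ligands made as membrane-anchored proteins with a mucin stalk, so that they can tether leukocytes directly or be shed. Cx3cl1, the ligand of CX3CR1, read 5.87, 2.80, 1.52 and 3.47 in LEC and 7.28, 4.48, 7.73 and 5.28 in BEC by probe set 1415803_at. LEC was lower in all 4 mice, but the LEC array of replicate 1 lay above the BEC arrays of replicates 2 and 4. All BEC arrays and 1 LEC array were above background. The difference of -2.78 ± 1.06 was not called (limma, adjusted p = 0.217), at least 3.22-fold lower in LEC, and the adjusted p stayed between 0.0708 and 0.445 in the alternatives. The 3 other Cx3cl1 probe sets differed by -0.84, 1.93 and -1.90, and the last 2 were above background on no array.

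Cxcl16, the ligand of CXCR6, read 6.41, 7.53, 3.75 and 5.02 in LEC and 6.29, 4.54, 6.40 and 7.09 in BEC. It was above background on 7 arrays, and the LEC and BEC values were intermixed. The difference was -0.41 ± 0.90 (limma, adjusted p = 0.899). Without LEC replicate 3 it was 0.24. The other Cxcl16 probe set, 1449195_s_at, differed by 0.33 with LEC higher in 3 mice, and was not called (limma over probe sets, adjusted p = 0.944).

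Cxcl17, a chemokine of mucosal tissues, read 7.50, 7.37, 6.42 and 5.42 in LEC and 6.05, 3.85, 3.78 and 4.25 in BEC. All arrays were above background and LEC was higher in all 4 mice, but the BEC array of replicate 1 lay above the LEC array of replicate 4. The means were 6.68 ± 0.97 in LEC and 4.48 ± 1.07 in BEC (SD, n = 4 each). The difference of 2.19 ± 0.79, a ratio of 4.57, was not called (limma, adjusted p = 0.188, and 0.0985 to 0.366 in the alternatives).

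Ccl28, a mucosal ligand of CCR10 and CCR3, read 7.50, 5.25, 7.41 and 3.90 in LEC and 5.39, 4.14, 5.38 and 1.93 in BEC. It was higher in LEC within each of the 4 mice, by 2.11, 1.11, 2.03 and 1.96, while the mice differed from each other by more than that. The difference of 1.80 ± 1.04 was not called (limma, adjusted p = 0.478), and it was 1.04 without BEC replicate 4. With the mouse as a block its SE was 0.67, and it was not called either (limma, adjusted p = 0.219). The other Ccl28 probe sets, 1455577_at and 1450218_at, differed by 0.06 and 1.37. Ccl25, the gut ligand of CCR9, differed by 0.90 ± 1.14 (limma, adjusted p = 0.798), by 0.11 without BEC replicate 2 and by 1.48 without LEC replicate 1. The other Ccl25 probe set, 1458277_at, differed by 0.57 and did not pass the filter.

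Epithelial markers are given beside these mucosal ligands. All 10 listed epithelial markers were tested and 0 were called, and 5 to 10 of them were above background on each LEC array and 8 to 10 on each BEC array. Their summed log2 signal was 8.40, 10.77, 13.28 and 9.56 on LEC arrays 1 to 4 and 9.24, 9.31, 14.36 and 12.49 on BEC arrays 1 to 4. Both arrays of mouse 3 were the highest of their group in this sum. The part of epithelial RNA in Cxcl17, Ccl28 and Ccl25 was not tested.

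Cxcl13, the B-cell attractant and ligand of CXCR5, read 4.84, 6.64, 4.43 and 5.08 in LEC and 0.87, 4.71, 4.10 and 4.11 in BEC. LEC was higher in all 4 mice, the groups overlapped, and the difference of 1.80 ± 0.99 was not called (limma, adjusted p = 0.447). It was 0.94 without BEC replicate 1, and the other Cxcl13 probe set, 1417851_at, differed by 0.06 with LEC higher in 2 mice. Cxcl14, a chemokine of epithelia and stroma, read 4.44, 1.13, 6.60 and 5.69 in LEC and 2.22, 1.92, 3.65 and 3.53 in BEC. Its LEC array of replicate 2 was the lowest of all 8, and the difference was 1.63 ± 1.17 (limma, adjusted p = 0.596), 2.74 without that array and 0.92 without LEC replicate 3. The other Cxcl14 probe set, 1418457_at, differed by 0.86. Pf4, the platelet factor stored in alpha granules, differed by 1.12 ± 0.88 (limma, adjusted p = 0.645), and by 0.58 without BEC replicate 3. Its highest value was 6.11, on the LEC array of replicate 3. Of 6 other platelet genes listed, 1 was tested and 0 were called. Their summed signal was 5.52 to 8.92 on LEC arrays and 4.14 to 6.07 on BEC arrays, and Itga2b, the platelet integrin gene, was above background on no array. Gp1bb, a subunit of the von Willebrand factor receptor, was the 1 tested, with a difference of 1.96 ± 1.18 (limma, adjusted p = 0.503) and 3 LEC and 2 BEC arrays above background. Ppbp, a platelet chemokine gene outside the symbols chosen, read 8.66 on the LEC array of replicate 3 and -0.23 to 4.66 on the others. The part of platelet RNA in the Pf4 values was not tested.

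Ccl9 and Ccl27a were the CC ligands above background on all arrays, and neither was called. Ccl9, a myeloid chemokine that binds CCR1, read 5.74, 4.53, 4.83 and 5.26 in LEC and 4.93, 3.82, 5.25 and 4.58 in BEC. The groups overlapped and the difference was 0.44 ± 0.73 (limma, adjusted p = 0.858), or 0.17 without BEC replicate 2. The other Ccl9 probe set, 1448898_at, differed by 2.49 and did not pass the filter. It was above background only on the LEC array of replicate 4, at 7.08. Ccl27a, a ligand of CCR10 best known from skin, read 7.15, 5.36, 4.25 and 4.85 in LEC and 5.43, 4.94, 4.58 and 4.97 in BEC. The LEC array of replicate 1 was the highest of the 8. The difference was 0.42 ± 0.79 (limma, adjusted p = 0.876), and it was -0.16 without that array.

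The other tested CC ligands attract monocytes, macrophages and eosinophils. Ccl3, a macrophage inflammatory protein gene, differed by 1.81 ± 1.13 and was higher in LEC in all 4 mice (limma, adjusted p = 0.524), with 1 array of each cell type above background and a difference of 0.95 without BEC replicate 4. Ccl6, a myeloid chemokine, read 5.58, 4.13, 8.01 and 4.70 in LEC and 3.07, 3.08, 6.95 and 7.42 in BEC, so the spread within a group exceeded the difference of 0.48 ± 1.17 (limma, adjusted p = 0.911). The other Ccl6 probe set, 1420249_s_at, differed by 0.08. Ccl11, the eosinophil attractant eotaxin, split both ways, with LEC values of 2.77, 5.97, 2.82 and 6.36 and BEC values of 4.92, 4.19, 3.69 and 3.07. Its difference was 0.51 ± 1.02 (limma, adjusted p = 0.887). Ccl8, a monocyte attractant, differed by 0.30 ± 1.11 (limma, adjusted p = 0.943). The signs for Ccl6, Ccl8 and Ccl11 turned when 1 array was left out.

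Macrophage and leukocyte markers are given beside these CC ligands. Of 16 macrophage and dendritic markers, 10 were tested and Mrc1, a mannose receptor gene that lymphatic endothelium also expresses, was called higher in LEC. The summed macrophage signal was 9.96 to 10.80 on LEC arrays and 9.10 to 10.47 on BEC arrays, ranges that overlapped. Much of that sum came from Mrc1, with a mean of 9.33 in LEC, and from Zbtb46, a dendritic-cell factor also found in endothelium, with means of 8.29 in LEC and 9.59 in BEC. Adgre1, H2-Aa, Lyz2 and Cd68, which mark macrophages and antigen-presenting cells, differed by 3.30, 2.09, 1.76 and 1.08. None of these 4 was called, and LEC was higher in all 4 mice for each. They were above background on 4, 4, 4 and 3 LEC arrays and on 1, 2, 3 and 0 BEC arrays. Other markers of the list did not share this direction or were near 0. Csf1r and C1qb differed by -0.86 and -0.10, and Itgam and Itgax by 0.20 and 0.23, none of them called. Csf1r was above background on 1 LEC and 3 BEC arrays, and the complement gene C1qb on 2 LEC and 4 BEC arrays. Cx3cr1 was above background on 0 LEC and 2 BEC arrays, and the complement gene C1qa on no array. For pan-leukocyte markers the sums were 6.14 to 9.37 and 6.25 to 8.56, with 3 of 6 tested and 0 called. For T-cell and NK-cell markers they were 6.56 to 8.11 and 6.60 to 7.95, with 3 of 11 tested and 0 called. The part of leukocyte RNA in the CC ligand values was not tested.

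Cxcl1, a ligand of CXCR2 that recruits neutrophils, was the remaining gene with a negative difference. By probe set 1441855_x_at it read 5.82, 5.53, 0.71 and 1.79 in LEC and 6.92, 5.91, 3.24 and 4.32 in BEC. LEC was lower in all 4 mice, while replicates 1 and 2 were high and replicates 3 and 4 low in both cell types. The difference was -1.64 ± 1.26 (limma, adjusted p = 0.633), and it was -0.72 without LEC replicate 3. The other Cxcl1 probe sets differed by -1.35 and -0.42.

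The 15 genes that did not pass the filter are the monocyte attractants Ccl2, Ccl7 and Ccl12, the T-cell and monocyte attractants Ccl4 and Ccl5, the CCR4 ligands Ccl17 and Ccl22, the CCR6 ligand Ccl20, the CCR8 ligand Ccl1, the eosinophil attractant Ccl24, the neutrophil attractants Cxcl2, Cxcl3, Cxcl5 and Cxcl15, and Xcl1, which draws cross-presenting dendritic cells. Their values ranged from -1.48 to 6.10. The probe set standing for the gene was above background on 0 arrays for 4 of them, on 1 array for 4, on 2 arrays for 6 and on 3 arrays for Xcl1. Ccl2 was above background on LEC replicates 2 and 3, at 5.32 and 5.17, and lay between 0.87 and 2.96 in BEC. Ccl12 was above background on LEC replicate 1 alone, at 6.08. Cxcl5 reached 6.10 in LEC replicate 3 and 4.78 in BEC replicate 3, and both arrays come from mouse 3. No transcript is taken as absent from a value under background.

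Ccl19 and Ccl21, the CCR7 ligands through which lymphatic vessels and lymph nodes guide dendritic cells, are read on this platform by probe sets annotated to several gene copies each, so no value can be given to 1 gene. Probe set 1419426_s_at is annotated to 9 genes, among them Ccl21a, Ccl21b, Ccl21c and Ccl21d. It read 14.91, 14.09, 14.18 and 14.23 in LEC and 3.61, 6.62, 8.75 and 2.78 in BEC. The LEC arrays were within 1 unit of each other, and the BEC arrays of replicates 2 and 3 were above background. The means were 14.35 ± 0.38 and 5.44 ± 2.76 (SD, n = 4 each). The difference of 8.91 ± 0.98 (limma over probe sets, adjusted p = 1.34e-04) is at least 367-fold higher in LEC, a bound of 721-fold without BEC replicate 3 and 211-fold without BEC replicate 4. It was called in all 12 alternatives run on probe sets.

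Probe set 1449277_at is annotated to 10 genes, among them Ccl19. It read 7.08, 2.75, 5.57 and 3.93 in LEC and 2.15, 2.82, 3.79 and 1.87 in BEC. The groups overlapped, with 2 LEC arrays and 1 BEC array above background, and the difference of 2.17 ± 1.07 was not called (limma over probe sets, adjusted p = 0.419). The 2 probe sets annotated to Ccl27a, Ccl27b and their copies had LEC means of 3.10 and 3.72 and BEC means of 0.73 and 2.86. The first did not pass the filter, and the second differed by 0.86 ± 1.27 (limma over probe sets, adjusted p = 0.848).

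The receptors of these ligands include signalling receptors and the atypical receptors, which bind chemokines without G-protein signalling and clear or store them. Of 23 receptor genes listed, 21 had a probe set of their own, 8 were tested, 2 were called higher in LEC and 3 lower, and the median difference of the 8 was -1.10 beside 0.08 for all genes. Cxcr4, the signalling receptor of CXCL12, read 5.32, 3.16, -0.20 and -1.51 in LEC and 10.59, 11.49, 11.18 and 10.39 in BEC. Its LEC array of replicate 1 alone was above background, so the ratio is known only as a bound of at least 93.0-fold lower in LEC (fitted difference -9.22 ± 1.21, limma, adjusted p = 5.04e-04). Ackr3, the atypical receptor that scavenges CXCL12, read 13.22, 13.02, 12.81 and 13.14 in LEC and 11.78, 11.46, 11.48 and 12.31 in BEC. It was higher on every LEC array than on any BEC array, with a difference of 1.29 ± 0.24, a 2.44-fold higher signal (limma, adjusted p = 0.00586). The Ackr3 call was lost with equal hybridisation controls (limma, adjusted p = 0.279), without the intensity trend (limma, adjusted p = 0.253) and with equal array medians (limma, adjusted p = 0.0981). Cxcl12 and Cxcr4 were thus both called lower in LEC, and Ackr3 was called higher under the scaling as deposited.

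The receptors for CC ligands went both ways. Ackr2, which scavenges inflammatory CC ligands and is known from lymphatic endothelium, read 9.77, 11.67, 10.57 and 11.15 in LEC and 8.15, 2.96, 2.68 and 2.81 in BEC. The BEC array of replicate 1 was the 1 BEC array above background, so the ratio is at least 72.4-fold higher in LEC and at least 164-fold without that array (fitted difference 6.64 ± 1.06, limma, adjusted p = 0.00222). Ackr4, which scavenges CCL19, CCL21 and CCL25, read 7.92, 5.44, 5.62 and 5.62 in LEC and 10.44, 10.17, 10.59 and 10.57 in BEC. The groups were far apart and the difference was -4.29 ± 0.60, 19.5-fold lower in LEC (limma, adjusted p = 7.92e-04) and 29.4-fold without LEC replicate 1. With the mean of all Ackr4 probe sets it was not called (limma, adjusted p = 0.181). Ackr1, the Duffy antigen receptor that displays chemokines on venules, had means of 4.19 ± 1.11 in LEC and 7.13 ± 0.60 in BEC (SD, n = 4 each). It was lower in LEC by at least 5.85-fold (limma, adjusted p = 0.0439), a call lost in 9 of 18 alternatives, the block by mouse among them (limma, adjusted p = 0.0694). Cxcr3, the receptor of CXCL9 to CXCL11, differed by 1.57 ± 1.03 (limma, adjusted p = 0.551), and Ccr7 was above background on no array.

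**Figure D4:**
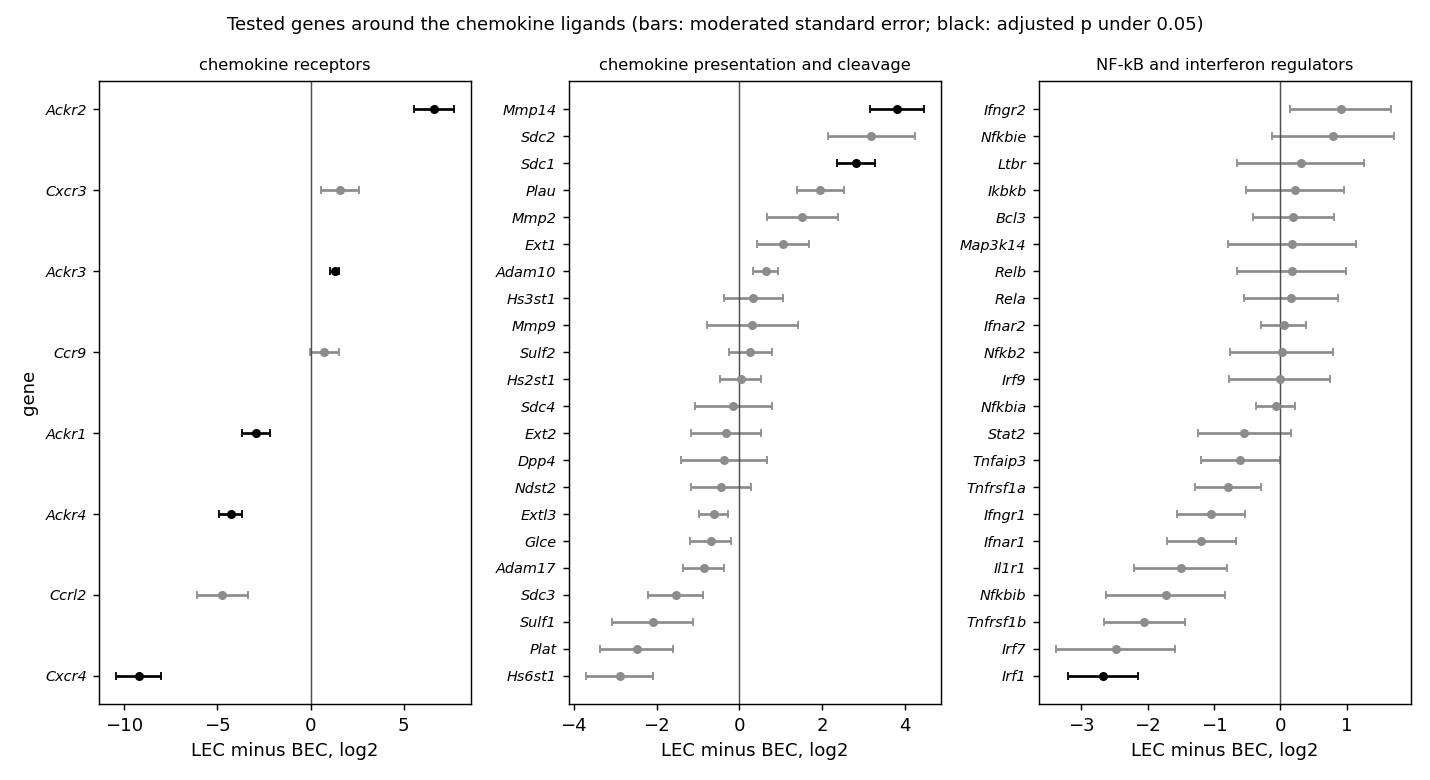
The LEC minus BEC difference (log2) with its moderated standard error is plotted for the tested genes of 3 lists, namely 8 chemokine receptors, 22 genes of chemokine presentation and cleavage, and 22 NF-kB and interferon regulators, in black where the adjusted p was under 0.05. Of the receptors 5 are in black, from Cxcr4 at -9.22 to Ackr2 at 6.64, and in the other lists Sdc1, Mmp14 and Irf1 are.

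Chemokines are presented on heparan sulphate proteoglycans and trimmed or shed by proteases. Of 25 such genes listed, 22 were tested, 2 were called higher in LEC and 0 lower, and the median difference was -0.06. Sdc1, the heparan sulphate proteoglycan syndecan-1, read 11.04, 11.21, 11.64 and 11.33 in LEC and 7.41, 8.10, 9.40 and 9.03 in BEC. This is a 7.06-fold higher signal (difference 2.82 ± 0.45, limma, adjusted p = 0.00225), and the call was lost with equal hybridisation controls (limma, adjusted p = 0.0699). Mmp14, a membrane-bound metalloproteinase, read 8.27, 8.47, 8.32 and 9.77 in LEC and 3.93, 5.21, 5.71 and 4.74 in BEC, at least 12.7-fold higher (limma, adjusted p = 0.00344). Adam10 and Adam17, the proteases that shed CX3CL1 and CXCL16, differed by 0.64 ± 0.30 (limma, adjusted p = 0.359) and -0.86 ± 0.49 (limma, adjusted p = 0.475).

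Transcription of many inflammatory ligands is driven by NF-kB and by interferon signalling. Of 25 regulators listed, 22 were tested, 0 were called higher and Irf1 was called lower, with a median difference of -0.04. Irf1, an interferon-induced factor that acts on the Cxcl9 and Cxcl10 genes, read 8.87, 7.74, 7.16 and 6.66 in LEC and 9.89, 10.99, 9.93 and 10.30 in BEC. Every LEC array was under every BEC array, with a difference of -2.67 ± 0.53, 6.36-fold lower in LEC (limma, adjusted p = 0.0108). The call was lost without BEC replicate 2 (limma, adjusted p = 0.0560) and without the intensity trend (limma, adjusted p = 0.0506). Irf7 differed by -2.48 ± 0.90 (limma, adjusted p = 0.191), and Tnfrsf1b, a receptor of TNF, by -2.05 ± 0.61 (limma, adjusted p = 0.0885). The NF-kB subunit gene Rela and the inhibitor gene Nfkbia differed by 0.16 ± 0.71 and -0.07 ± 0.29 (limma, adjusted p = 0.955 and 0.950).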

How the data were processed

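The deposited table holds log2 signals of 8 arrays, and MAS5 is named in the submitters' processing notes, in a version not given in the sources used here. The 2% trimmed mean of the linear signal was 100.04 on every array, so the authors' values were scaled per array. They entered the tests as deposited. Groups came from sample titles. Symbols came from the platform annotation of 2016, updated to RefSeq (GRCm38.p6). The members and lists were chosen with earlier results of these data known.

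Each gene was read by its probe set of highest mean, kept if above the 40th percentile on at least 4 of 8 arrays, and limma 3.58.1 (R 4.3.3) was run on 13259 genes (lmFit, eBayes with an intensity trend, cell type as the only term). A gene was called at a Benjamini-Hochberg adjusted p under 0.05, and the same fit was run over 28838 probe sets. The code was tested on simulated data with large planted differences and no pairing by mouse. Smaller differences, like those of most ligands, were not part of that test. Background was the 95th percentile of 27 control probe sets on each array. The number of arrays limits the precision, and p-values rest on the joint variation among mice, amplifications and arrays.

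The series design states animal-matched pairs. Deviations from the group means correlated within mice 1 to 4 at 0.142, 0.0776, 0.181 and 0.0510, and the block by mouse was an alternative. Others were the scaling, filter, trend, pseudocount, floor, choice of probe set and each array left out. Named in full were ligands that were called, that had groups without overlap or that were above background on all arrays. Other members stand by their values or counts, some of them (Ccl2, Ccl12, Cxcl5) chosen after their values were seen. Of the listed pathway and marker genes the called ones were named, and others named there were chosen after their values were seen. The 64 control probe sets and the 4 ligand probe sets annotated to several genes stayed out of the members.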

Additional observations from a re-analysis of the deposited data

Results flagged for a closer look

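In 8 of 104 groups of 4 arrays, 1 array of a ligand probe set lay far from the other 3, with a gap over the group's range above Dixon's 95% critical value. For normally distributed values, chance alone gives this in about 1 of 20 groups. The share of such groups over all probe sets was not counted. Among LEC arrays, replicate 1 read 5.77 for Ccl17 (1419413_at), with the others at 0.89 to 1.37, and 1.77 for Cxcl9 (1456907_at), with the others at 4.25 to 4.45. Replicate 2 read 3.50 for Cxcl15 (1421404_at), with the others at -0.25 to 0.12, and replicate 4 read 7.08 for Ccl9 (1448898_at), with the others at 2.39 to 2.92. Among BEC arrays, replicate 1 read 0.87 for Cxcl13 (1448859_at), with the others at 4.10 to 4.71. Replicate 2 read 1.26 for Ccl8 (1419684_at), with the others at 3.46 to 3.63, and -0.01 for Cxcl11 (1419698_at), with the others at 3.46 to 4.15. Replicate 3 read -1.48 for Xcl1 (1419412_at), with the others at 2.91 to 3.81. Of the 8 values, those of Ccl17 and Ccl9 were above the background of their array.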

How the results depend on the processing

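Of 18 alternatives, 17 were planned, and equal hybridisation controls and the refits over single probe sets were chosen after seeing the data. The Cxcl12 call was kept in all 18. The count of ligands called higher was 0 in each, and that of ligands called lower was 1 in each except the mean of all probe sets, where it was 2 (Cxcl12 and Cxcl9). Over all genes, 123 were higher and 280 lower with equal hybridisation controls, and 162 and 336 with equal medians, against 234 and 306. Leaving out 1 array gave 156 to 227 higher, and 180 lower without BEC replicate 2, 200 without BEC replicate 4 and up to 329 otherwise. With the mouse as a replicate block, 236 genes were higher and 298 lower, Cxcl12 differed by -4.0 ± 0.37 (limma, adjusted p = 0.0010), and no ligand call changed.

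Signs turned for 6 ligands, none of them called. With 1 array left out, the difference ran from -0.11 to 1.08 for Ccl11, -0.16 to 0.81 for Ccl27a, -0.33 to 1.24 for Ccl6, -0.40 to 0.98 for Ccl8, -0.49 to 0.66 for Cxcl10 and -1.02 to 0.24 for Cxcl16. With equal hybridisation controls Ccl8 was at -0.09 and Cxcl10 at -0.13. Cxcl10 was at -0.07 after quantile normalization and at -0.01 with equal medians or with log2(signal + 16). The cause was not tested. Signals near background limit most ligands.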

Other observations

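Further lists were read beside the ligands. Of 15 genes that respond to tissue dissociation, all were tested and Zfp36, which encodes an mRNA decay factor, was called lower in LEC, at 5.06-fold. The median difference of the list was -0.22. Fos, Jun, Egr1, Ier3 and Socs3 were lower in LEC in all 4 mice, with differences from -1.98 to -1.21, and were not called. Fosb, Junb, Hspa1a, Hspa1b and Myc had differences above 0, up to 2.89 for Myc, and were not called either. The summed log2 signal of the 15 genes was 13.13 to 13.93 on LEC arrays and 13.87 to 14.66 on BEC arrays. The neutrophil sum was 5.64 to 6.97 on LEC arrays and 4.00 to 5.06 on BEC arrays, with 1 of 6 genes tested and 0 called. Of these genes 1 to 2 were above background on each LEC array and 0 on each BEC array. The BEC sums thus hold only values under background. The B-cell and plasma-cell sum was 4.17 to 7.81 and 3.83 to 6.46, and the mast-cell sum was 5.39 to 7.85 and 5.35 to 6.67, with 2 of 6 genes tested and 0 called in each.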
